A study of Mus musculus with 2 samples.

Results

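Genes of phagocytes were followed in brown adipose tissue. They were the Fc receptor genes Fcer1g and Fcgr3, the kinase gene Syk, the phagocyte oxidase gene Cybb and the chemokine genes Ccl6 and Ccl9. These 6 genes were selected by name from the 628 genes of the deposited table, with their values already known, among genes higher in the 3bKO library. That they are higher is therefore a description and not a finding.

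The table compares 2 RNA-seq libraries, 1 labelled fl/fl and 1 labelled 3bKO, each from brown adipose tissue of C57BL/6 mice on a high-fat diet, given as 60%, for 20 weeks. The labels call fl/fl the control and do not spell out 3bKO, and the Cre line, the sex, the age and the number of animals in a library are not given in the sources used here. The columns were assigned to the genotypes by their headings, and the name of the deposited table sets Myf5 against D3b without saying which heading each belongs to, so every direction rests on the headings. Since each genotype has 1 library, neither a replicate error nor a test can be given. A ratio compares these libraries, not the genotypes. The values are FPKM, fragments scaled to the length of the transcript and to the mapped fragments of the library, so that levels can be compared between genes. The depth of the libraries is unknown.

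The table is a filtered list. Its smallest absolute log2 ratio is 0.50, and 512 of its genes were higher and 116 lower in 3bKO. A gene outside it has no value and cannot be called unchanged. The tissue label could be checked only in part, since 4 of 13 genes listed as brown adipocyte markers are in the table, all of them lower in 3bKO. Whether each is particular to that cell was not examined. Dio2, which encodes the enzyme that activates thyroid hormone inside the tissue, was 48.0 FPKM in fl/fl against 20.6 FPKM in 3bKO. Ppargc1a, a coactivator of mitochondrial genes, had values of 32.5 and 17.5 FPKM. Pdk4 and Kcnk3 had ratios of 0.683 and 0.698. Of 15 skeletal muscle markers, 13 are in the table, and their summed level was 129 FPKM in fl/fl against 1993 FPKM in 3bKO. The highest in 3bKO were Tnnt3, Acta1, Tnnc2, Tnni2, Ckm and Mylpf, at ratios from 21.3 to 39.3. Since FPKM are shares of a library, abundant transcripts in one library lower all other values in it. The part of the muscle transcripts in the ratios below was not tested.

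Fc receptors bind the constant region of antibodies. Those that activate the cell signal through a short cytoplasmic motif, the ITAM, whose tyrosines are phosphorylated and then bind the kinase SYK. In macrophages and neutrophils this leads to phagocytosis and to assembly of the NADPH oxidase, which makes superoxide in the phagosome. Chemokines are secreted proteins that attract leukocytes. Adipose tissue macrophages carry all of these components and are known to become more numerous in obese fat.

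Fcer1g encodes the Fc receptor gamma chain, the adaptor that carries the ITAM for several receptors. It lies at chr1:171229572-171234349 (GRCm38, the assembly that mm10 names). The motif is shown because the adaptor signals through it. It covers codons 65 to 79 of 86 in the GENCODE vM1 transcript, and capitals mark the codons of the 2 tyrosines and 2 leucines that define it.
Fcer1g ITAM, coding strand: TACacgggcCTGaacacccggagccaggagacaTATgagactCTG
Ccl6 and Ccl9 encode C-C chemokines, named for adjacent cysteines near the start of the mature protein. The stretch is shown to compare them. Capitals mark the adjacent cysteine codons, which use the same bases in both genes.
Ccl6, codons 45 to 56 of 116: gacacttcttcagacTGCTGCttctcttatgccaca
Ccl9, codons 52 to 63 of 122: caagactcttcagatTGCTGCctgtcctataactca
Aligned over 112 residues, the encoded proteins were identical at 63, or 56.3%.

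The Fc receptor genes had the highest ratios of the 6 genes. Fcgr3, the activating low-affinity receptor for IgG, was 9.43 FPKM in fl/fl against 23.9 FPKM in 3bKO, a ratio of 2.53 (log2 ratio 1.34). Fcer1g was 13.4 FPKM in fl/fl against 30.7 FPKM in 3bKO, a ratio of 2.29 (log2 ratio 1.2). Fcgr3 protein needs the gamma chain for its display on the cell surface. Within a library, the level of Fcgr3 was 0.705 of that of Fcer1g in fl/fl and 0.777 in 3bKO, a change of 1.10 times. Both genes were chosen among those higher in 3bKO, so their like proportion is a description.

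Fcgr3 lies at chr1:171051169-171065915, 163.66 kb from Fcer1g on the same chromosome. Of the 7 protein-coding genes annotated between them, 0 are in the table. On its other side, beyond Fcgr4, lies Fcgr2b, the inhibitory IgG receptor, 75.1 kb away. Fcgr2b was 7.28 FPKM in fl/fl against 17.3 FPKM in 3bKO, a ratio of 2.38. The inhibitory gene stood at 0.772 of the activating gene in fl/fl and at 0.726 in 3bKO. These genes are close copies in part. Of the stretches of 50 bases in the Fcgr3 transcript, 12.8% also occur in Fcgr2b transcripts, and the encoded proteins were identical at 67.8% of 264 aligned residues. The split of reads between Fcgr3 and Fcgr2b is therefore uncertain. Fcer1g shared 0 such stretches with another protein-coding gene.

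Syk, the kinase that docks on the phosphorylated ITAM, had the lowest level of the 6 genes. It lies at chr13:52582610-52648792 and was 2.75 FPKM in fl/fl against 5.35 FPKM in 3bKO, a ratio of 1.95 (log2 ratio 0.96). Its level relative to Fcer1g was 0.206 in fl/fl and 0.174 in 3bKO. The adaptor and its kinase were thus both higher in 3bKO, the kinase by the smaller ratio.

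Cybb encodes the catalytic subunit of the phagocyte NADPH oxidase. It lies at chrX:9435252-9487766 and was 4.08 FPKM in fl/fl against 8.21 FPKM in 3bKO, a ratio of 2.01 (log2 ratio 1.01). The long noncoding gene Gm33784, at chrX:9480573-9484526, overlaps Cybb, so reads of these genes may not be told apart. Cyba, which encodes the smaller membrane subunit that forms a complex with the product of Cybb, was 14.5 FPKM in fl/fl against 29.1 FPKM in 3bKO, a ratio of 2.0. Cybb stood at 0.281 of Cyba in fl/fl and at 0.283 in 3bKO. The membrane subunits of the oxidase thus had almost the same ratio. The other 6 genes on the phagocyte oxidase list, cytosolic subunits among them, have no value, and neither has any of the 7 genes of other NADPH oxidases.

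The chemokines had the lowest ratios. Ccl6 had the highest level of the 6 genes in both libraries, with 18.8 FPKM in fl/fl against 34.3 FPKM in 3bKO, a ratio of 1.82 (log2 ratio 0.87). Ccl9 was 10.4 FPKM in fl/fl against 16.0 FPKM in 3bKO, a ratio of 1.54 (log2 ratio 0.62). Both proteins act on the receptor CCR1 of myeloid cells. Ccl9 stood at 0.552 of Ccl6 in fl/fl and at 0.466 in 3bKO.

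Ccl9 lies at chr11:83572917-83578636 and Ccl6 at chr11:83587886-83593087, 9.25 kb apart with 0 coding genes between them. Ccl3, Ccl4 and Ccl5, which lie in the same chemokine cluster, have no value in the table. The long noncoding gene E230016K23Rik overlaps Ccl6 and is on the opposite strand in GENCODE vM1. The protocol in the labels does not say that the library marks strand, so reads of these genes may not be told apart. Ccl6 shared 0 stretches of 50 bases with another protein-coding gene, and Ccl9 shared 1.62% of its stretches with many genes. The sequences before the start of each gene, 250 bases of RefSeq (GRCm38.p6, minus strand), are shown because these neighbours encode related proteins and the values of both genes differed in the same direction, before the division by the median of the table described below. Capitals mark the longest run that the windows share, 13 bases.
Ccl6, chr11:83593088-83593337: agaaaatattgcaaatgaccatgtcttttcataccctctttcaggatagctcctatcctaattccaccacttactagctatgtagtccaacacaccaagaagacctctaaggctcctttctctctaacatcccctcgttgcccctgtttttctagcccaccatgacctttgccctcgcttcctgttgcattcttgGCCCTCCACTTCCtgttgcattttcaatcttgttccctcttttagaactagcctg
Ccl9, chr11:83578637-83578886: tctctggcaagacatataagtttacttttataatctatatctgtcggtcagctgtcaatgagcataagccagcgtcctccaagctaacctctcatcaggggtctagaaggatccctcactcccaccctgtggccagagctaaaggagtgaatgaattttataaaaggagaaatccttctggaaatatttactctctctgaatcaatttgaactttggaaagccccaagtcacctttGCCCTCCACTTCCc
The run ends 43 bases before the start of Ccl6 and 2 bases before that of Ccl9. On either strand it occurs in 5 of 32851 promoter windows of this length, these included. The run was picked as the longest match between these windows, so its rarity is not a finding. It holds, on the reverse strand, the letters GGAAGT, the core bound by ETS factors such as PU.1, a regulator of myeloid genes. Of all windows, 19.7% hold this core on either strand. Of the 6 genes it was found for Ccl6 and Ccl9, where it had to occur because the run picked from their windows holds it. A match is a description of letters and not a binding site.

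**Figure D1:**
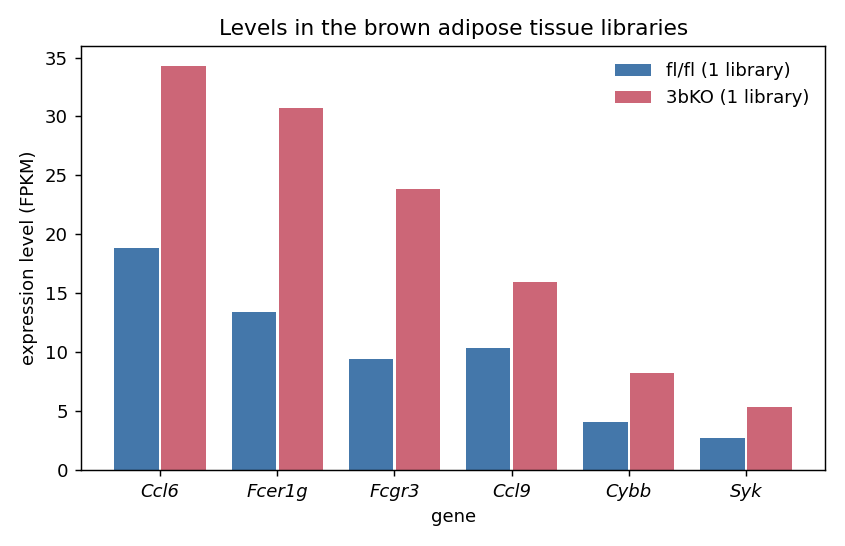
Level of each gene in FPKM (vertical axis) for the fl/fl library (blue) and the 3bKO library (red), with 1 library per bar and no error bar. All 6 bars are higher in 3bKO, from 2.75 against 5.35 FPKM for Syk to 18.8 against 34.3 FPKM for Ccl6. The ratios of Ccl6 and Ccl9 lie below the median ratio of the table, which is a filtered list.

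The order of the levels was nearly the same in both libraries. In fl/fl it ran from Ccl6 through Fcer1g, Ccl9, Fcgr3 and Cybb to Syk. In 3bKO, Fcgr3 stood above Ccl9 and the order was otherwise the same. The highest level was 6.84 times the lowest in fl/fl and 6.41 times in 3bKO. Without replicates it is not known which neighbours in this order differ beyond the spread between animals. The summed level of the 6 genes was 58.8 FPKM in fl/fl against 118 FPKM in 3bKO, a ratio of 2.01.

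Among the genes of the table, the 6 genes lay near the middle of the ratios. All 6 were higher in 3bKO in the deposited values, beside 81.5% of the table, and the choice of the genes used this direction. More than 2-fold higher were 3 of the 6 (Fcgr3, Fcer1g and Cybb), beside 47.1% of the table. Their median log2 ratio was 0.98, beside 0.96 for all genes of the table and 1.12 for those higher in 3bKO. Cybb lay just above 2-fold, and the rounding of the deposited values allows ratios from 2.01 to 2.02. With a pseudocount of 0.1 or 1 added to both levels its ratio was 1.99 or 1.81, below 2-fold, which left 2 of the 6 genes past that fold. Divided by the median ratio of the table, 1.94, the ratios of Ccl6 and Ccl9 turned below 1, at 0.937 and 0.791, and that of Syk was 1.0. This median is that of a filtered list with 81.5% of its genes higher in 3bKO, so it does not mark an unchanged gene. Values below 1 place a gene under the middle of the list and do not reverse its direction.

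**Figure D2:**
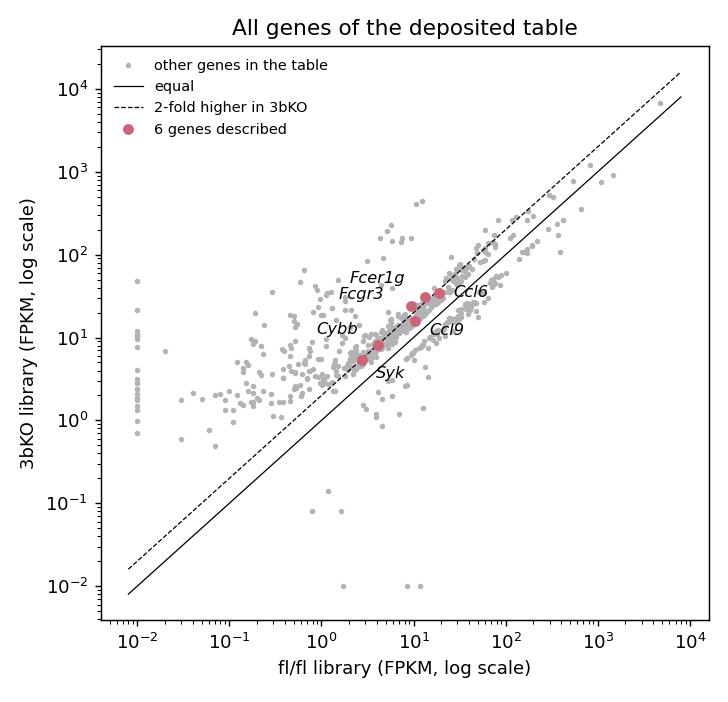
Every gene of the table (grey) by its FPKM in the fl/fl library (horizontal, log scale) and in the 3bKO library (vertical, log scale), with the 6 genes in red, a solid line of equal values and a dashed line of 2-fold higher values. Fcgr3, Fcer1g and Cybb lie above the dashed line, and Syk, Ccl6 and Ccl9 lie between the lines. The gap in the points around the solid line is the filter of the table.

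Macrophage markers were higher in the same library and by similar ratios. Of 20 markers, 10 are in the table, all of them higher in 3bKO with 4 past 2-fold, beside 81.5% and 47.1% of the table, and 0 at the floor of 0.01. Their summed level was 283 FPKM in fl/fl against 586 FPKM in 3bKO, and their ratios ran from 1.81 to 2.28 with a median of 1.93, beside 1.94 for the table. Lyz2, the lysozyme of myeloid cells, was 118 FPKM in fl/fl against 259 FPKM in 3bKO. Cd68, a lysosomal protein of macrophages, was 22.8 and 51.9 FPKM, and Csf1r, the receptor for the macrophage growth factor, was 10.9 and 22.2 FPKM. The complement genes C1qa, C1qb and C1qc had ratios of 2.05, 1.93 and 1.85. In bulk tissue, more cells of a type and more RNA per cell cannot be told apart, and the part of the macrophage markers in the ratios of the 6 genes was not tested.

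Set beside these markers, the 6 genes spread to either side. The ratios of Cybb, Syk and Ccl6 lay within the range of the markers, those of Fcer1g and Fcgr3 above it and that of Ccl9 below it. The level of Fcer1g relative to Cd68 was 0.588 in fl/fl and 0.591 in 3bKO, whereas that of Ccl9 was 0.456 and 0.308. Fcgr3 relative to Cd68 was 0.415 in fl/fl and 0.460 in 3bKO, and Ccl6 was 0.827 and 0.660. Cd68 had the highest ratio of the 10 markers, 2.28, so a gene with a lower ratio than that lost level relative to it. The levels of Cybb and Syk relative to Cd68 were 0.179 and 0.121 in fl/fl and 0.158 and 0.103 in 3bKO. These changes, of 0.882 and 0.853 times, lay between those of Ccl6 and Fcer1g.

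Other cells that carry these genes were looked for by their markers. Of 51 markers of neutrophils, mast cells, dendritic cells, B cells, T and NK cells and platelets, 1 is in the table. This gene, Kit, the receptor for stem cell factor, was 1.94 FPKM in fl/fl against 4.10 FPKM in 3bKO. The other 50 have no value, which says nothing about their levels.

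**Figure D3:**
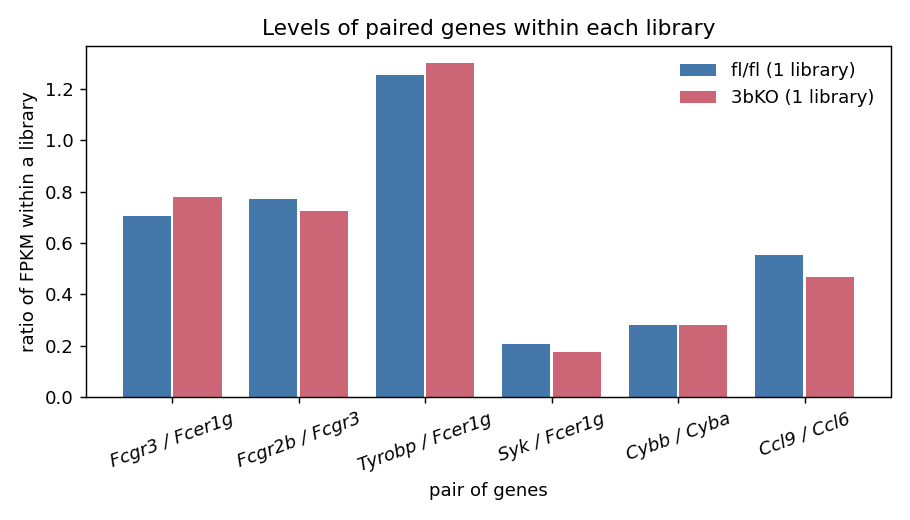
Ratio of the FPKM of the first gene to that of the second within each library (vertical axis), for the fl/fl library (blue) and the 3bKO library (red), with no error bar. Cybb over Cyba is nearly equal in the libraries (0.281 and 0.283), and Syk over Fcer1g and Ccl9 over Ccl6 are lower in 3bKO.

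The other genes of the same pathways were counted from lists. Of 104 genes besides the 6, 12 are in the table, 11 of them higher and 1 lower in 3bKO, with 7 more than 2-fold higher. In the whole table, 81.5% were higher and 47.1% more than 2-fold higher. The median log2 ratio of the 12 genes was 1.16, beside 0.96 for the table and 1.12 for its genes higher in 3bKO. The 12 genes include those of inhibitory receptors and Mpeg1, which encodes a pore-forming protein. Among 22 genes of ITAM signalling, 5 are in the table. Tyrobp, which encodes DAP12, the other ITAM adaptor of myeloid cells, was 16.8 FPKM in fl/fl against 40.0 FPKM in 3bKO. It stood at 1.25 times the level of Fcer1g in fl/fl and 1.30 times in 3bKO, and both adaptors were higher in 3bKO. The inhibitory receptor gene Lilrb4a was 8.03 FPKM in fl/fl against 19.2 FPKM in 3bKO. Ptprc, the phosphatase CD45 of all leukocytes, was 4.01 and 7.21 FPKM, and Sirpa, an inhibitory receptor that binds CD47, was 17.9 and 26.4 FPKM, a ratio of 1.47.

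Of 14 genes on the list of ITAM-coupled receptors 4 are in the table, all more than 2-fold higher, beside 47.1% of the table. Clec7a, the beta-glucan receptor dectin-1, which also signals through SYK, was 1.54 FPKM in fl/fl against 6.97 FPKM in 3bKO, a ratio of 4.53. Trem2, a lipid receptor that uses DAP12, was 2.37 FPKM in fl/fl against 7.95 FPKM in 3bKO, a ratio of 3.35. The remaining members are not activating receptors of this kind. Pirb, an inhibitory receptor, had a ratio of 2.11, and Mpeg1, a pore-forming protein of phagocytes, was 10.2 FPKM in fl/fl against 25.1 FPKM in 3bKO.

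Of 18 C-C chemokine genes on the list, Ccl6 and Ccl9 alone are in the table. The chemokine gene Ccl21a was not on the list but has a value, with a ratio of 2.91, and is described at the end. Of 16 other chemokine genes 1 is, Cxcl14, at 15.4 FPKM in fl/fl against 23.4 FPKM in 3bKO. Of the 21 chemokine receptor genes counted here 1 is, and it was lower in 3bKO. This gene, Ackr3, whose product is an atypical receptor that takes up CXCL12, was 72.4 FPKM in fl/fl against 50.6 FPKM in 3bKO, a ratio of 0.699. Ccr1, whose product binds the chemokines of both genes, has no value.

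**Figure D4:**
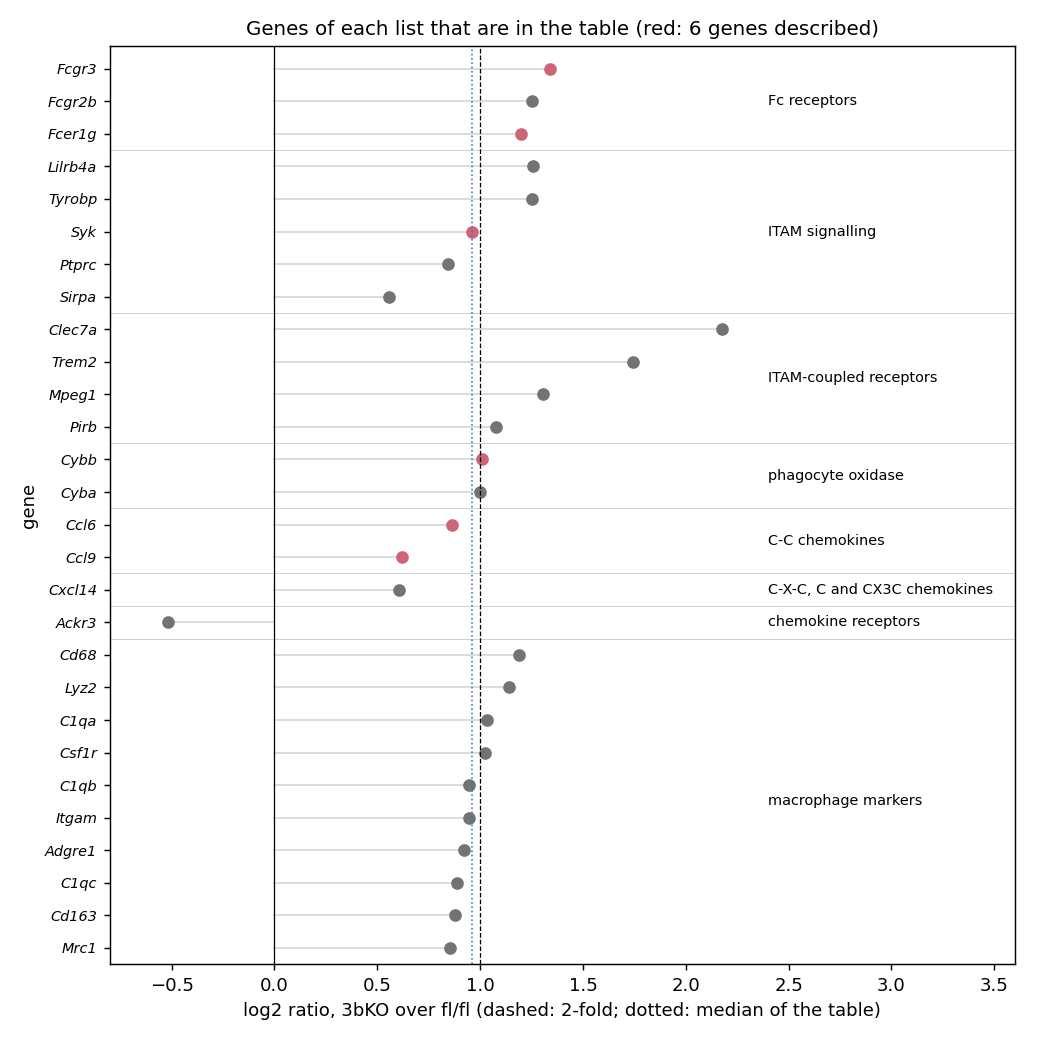
The log2 ratio of 3bKO over fl/fl (horizontal axis) for each gene of the pathway lists and of the macrophage markers that is in the table, 1 gene per line, with the 6 genes in red, a dashed line at 2-fold and a dotted line at the median of the table, 0.96. All points but Ackr3 lie to the right of 0, and 3 of the 6 genes lie beyond the dashed line. Ccl6 and Ccl9 lie to the left of the dotted line, which is the median of a filtered list and does not mark an unchanged gene.

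For each of the 6 genes, the nearest genes of the table were taken by the distance between their log2 levels over the 2 libraries. Nearest to Fcer1g were Laptm5, a lysosomal protein of blood cells, at a distance of 0.10, and Lcp1, the actin-bundling plastin of leukocytes, at 0.11. Nearest to Fcgr3 were Mpeg1 at 0.13 and Csf1r at 0.24. Ccdc9b and Ccdc88c lay nearest to Syk, at 0.04 and 0.05, and Pi16 and Mef2c nearest to Cybb, at 0.07 and 0.09. Clic1 and Fam20c lay nearest to Ccl6, at 0.05 and 0.08. Cuedc1 and Csk, an inhibitor of Src family kinases, lay nearest to Ccl9, at 0.03 and 0.05. With 2 libraries such a likeness means only like levels in each.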

How the data were processed

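The deposited table holds FPKM calculated by the authors for 1 fl/fl and 1 3bKO library of poly(A) RNA. The submitters' processing notes name RSEM and mm10, without versions. The filter that chose the 628 genes is, like read length and depth, not given in the sources used here. RefSeq GRCm38.p6 gave a symbol for 627 of the identifiers. The 6 genes and the 17 gene lists were chosen with earlier results of these data known.

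Of the list genes, 1 is not reported here and is left out of the list counts. The FPKM in 3bKO was divided by that in fl/fl, with no pseudocount. Genes above 2-fold were counted. Nothing was tested, since no replicates exist. Named were the 6 genes, every pathway list gene in the table, all marker genes in the table up to 8 per list or otherwise the 6 highest in 3bKO, and the 2 nearest genes to each of the 6. Alternatives were other fold thresholds, a minimum level, pseudocounts and other scales. Positions came from RefSeq. Transcripts for shared stretches of 50 bases came from GENCODE vM1, where Syk was not analysed here. Calculations used Python 3.11.15, NumPy 2.4.6, pandas 2.3.3, Biopython 1.88 and Matplotlib 3.10.9, and counts and nearest genes were tested on simulated data.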

Additional observations from a re-analysis of the deposited data

How the results depend on the processing

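Of the 6 genes, 3 were more than 2-fold higher in 3bKO, against 6 at 1.5-fold and 0 at 3-fold and at 4-fold. In the whole table, 47.1% passed 2-fold. The lowest ratios past 1.5-fold, 3-fold and 4-fold were those of Pros1, Kif21b and Dpysl3, which ranked 468, 175 and 148 of 628. The 6 genes were chosen among those higher in 3bKO. With either pseudocount, Cybb no longer passed 2-fold. Of the lists, Fc receptors fell from 3 genes to 0 at 3-fold and at 4-fold. ITAM signalling had 2, against 4 at 1.5-fold and 0 at 3-fold and at 4-fold. ITAM-coupled receptors had 4, against 2 at 3-fold, 1 at 4-fold and 3 with a pseudocount of 1. Phagocyte oxidase had 1, against 2 at 1.5-fold and 0 at 3-fold, at 4-fold and with a pseudocount of 0.1 or 1. C-C chemokines had 0, against 2 at 1.5-fold, and the other chemokines 0, against 1. Chemokine receptors had 0 under each setting. Asking for at least 1 FPKM, either in both libraries or in the higher one, changed none of these counts.

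Pseudocounts of 0.1 and 1 moved no ratio of the 6 genes by more than 1.5 times. Divided by the median ratio of the macrophage markers, the ratios were 1.19 for Fcer1g, 1.31 for Fcgr3, 1.01 for Syk, 1.04 for Cybb, 0.946 for Ccl6 and 0.798 for Ccl9. Divided by that of the table, a filtered list, they were 1.18, 1.30, 1.0, 1.04, 0.937 and 0.791 in the same order. The counts move with the threshold because fewer or more genes pass it, and the divided ratios because of the divisor. No paired analysis was possible because each genotype had 1 library, and no replicate could be left out. Without depth, the counting error of a level near 3 FPKM is unknown.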

Other observations

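Some genes near these pathways but on none of the lists were seen in the table, and were chosen after their values were seen. Ccl21a, a chemokine of lymphatic vessels, was 5.55 FPKM in fl/fl against 16.2 FPKM in 3bKO, a ratio of 2.91, higher than those of Ccl6 and Ccl9. Near-identical copies of Ccl21a exist, so its value is uncertain. Clec12a, an inhibitory lectin receptor of myeloid cells, was 2.37 FPKM in fl/fl against 6.32 FPKM in 3bKO. Itgb2, the integrin chain that pairs with the product of Itgam, was 5.37 and 11.6 FPKM, a ratio of 2.15 beside 1.92 for Itgam. Siglec1, a sialic acid receptor of macrophages, was 0.60 FPKM in fl/fl against 1.98 FPKM in 3bKO. Cd300ld5, of a family that includes receptors coupled to Fcer1g in mouse, was 1.69 and 8.71 FPKM, a ratio of 5.15. The 5 genes were all higher in 3bKO, as were 81.5% of the genes in the table.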
